A study of Mus musculus with 12 samples.

Results

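The sites described here were BRG1 promoter regions centred upstream of the transcription start site (TSS) in wild-type cardiac precursors (CPs). They were selected on the deposited list of BRG1 regions itself, so the position, width and side of each region are properties the members were chosen by. A member was a distinct region narrower than 1000 bp that overlapped the 1 kb either side of a TSS of protein-coding genes on a single strand, and whose midpoint lay before the nearest such TSS in the direction of that gene. The 4791 rows of the list held 3473 distinct regions once rows with identical coordinates were merged, and 570 of these (16.4%) met the conditions. The other regions comprised 1464 that met the same conditions with the midpoint after the TSS, 162 at promoters on both strands, 314 promoter regions of 1000 bp or more and 963 away from TSSs of protein-coding genes.

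The study followed the BAF complexes through cardiac differentiation of mouse embryonic stem cells (ESCs), and asked here where BRG1 sat on chromatin in CPs. The CPs were wild type, of the strain given as W4/129S6, at passage 15-20, and were made from embryoid bodies with VEGF, Activin and BMP4 followed by FGFs. The list came from 2 BRG1 ChIP-seq libraries of these cells with 1 input library, and the other 9 libraries, of BAF170 KO CPs and of cardiomyocytes that were wild type or lacked BAF60c or BAF170, were not analysed here. The list holds positions only, with no height, depth or value per replicate, so neither the spread between replicates nor the identity of the cells could be checked from it. How rows came to be repeated is not given in the sources used here. The number of distinct regions is the same as the number of sites that the study gives for cardiomyocytes, and the number of rows the same as that for CPs, so whether the distinct regions are those of CPs rests on the name of the list and is not settled here.

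BRG1 (SMARCA4) is the ATPase of BAF complexes, which use ATP to slide or evict nucleosomes. Promoters of vertebrate genes commonly have a stretch with few nucleosomes just before the TSS, where general factors and sequence-specific activators bind, and a well-placed first nucleosome just after it. Many of these promoters are CpG islands, stretches rich in C and G that keep their CpG dinucleotides.

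The sequences of 11 stretches from 10 genes are examples of what lay under these regions before the TSS. Each is the part of a region that precedes the nearest TSS, holds no annotated exon, and is read from mm9 in the direction of the gene, 5′ to 3′. Stretches of 60 to 300 bp could be shown. Over their full extent 435 of the 570 members held annotated exonic bases, so the stretches do not stand for the set. Capitals mark GGGCGG (the GC box bound by the Sp and Klf families), TATAAA (the TATA box) and CCAAT (the box bound by NF-Y) on either strand, where overlapping matches run together; other letters carry no mark. Among the genes of the lists used below, those shown encode signals and a regulator of the early heart, a contractile protein, a calcium channel and an early response factor, with the farthest upstream region that could be shown; they were picked after their sequences had been seen, as was Aqp3, which was added as a promoter with a TATA box. The stretch of Tbx3 is chr5:120120506-120120605 on the plus strand, 172 to 73 bp before the TSS, inside an intron of a gene on the other strand that is not protein coding (Gm2301). Those of Jag1 (chr2:136942766-136942885), Bmp7 (chr2:172765906-172766165), Wnt9b (chr11:103611136-103611345), Klf10 (chr15:38230706-38230945) and Tpm1 (chr9:66897214-66897485) are on the minus strand, before every annotated TSS of the gene and in no other gene. Both stretches of Fgf9, chr14:58691066-58691185 and chr14:58693786-58693885 on the plus strand, lie in an intron of a longer Fgf9 transcript. That of Cacna1c (chr6:119146586-119146805, minus strand) lies in an intron of the neighbouring gene Dcp1b, and that of Ehbp1 (chr11:22186826-22186965, minus strand) in an intron of a longer Ehbp1 transcript. That of Aqp3 is chr4:41045217-41045425 on the minus strand.
Tbx3: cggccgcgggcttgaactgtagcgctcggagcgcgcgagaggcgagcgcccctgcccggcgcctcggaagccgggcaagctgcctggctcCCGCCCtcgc
Jag1: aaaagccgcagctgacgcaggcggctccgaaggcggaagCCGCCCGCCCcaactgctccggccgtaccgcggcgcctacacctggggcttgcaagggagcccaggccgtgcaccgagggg
Bmp7: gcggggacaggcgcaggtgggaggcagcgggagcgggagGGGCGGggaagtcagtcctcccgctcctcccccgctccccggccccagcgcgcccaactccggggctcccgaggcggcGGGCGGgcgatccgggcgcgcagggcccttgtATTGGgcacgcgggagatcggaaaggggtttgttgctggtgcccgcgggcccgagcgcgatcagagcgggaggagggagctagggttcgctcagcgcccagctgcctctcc
Wnt9b: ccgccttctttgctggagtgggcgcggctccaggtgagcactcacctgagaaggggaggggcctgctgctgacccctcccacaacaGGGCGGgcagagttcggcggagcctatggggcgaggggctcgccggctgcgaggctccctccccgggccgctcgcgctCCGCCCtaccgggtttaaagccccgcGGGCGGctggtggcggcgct
Klf10: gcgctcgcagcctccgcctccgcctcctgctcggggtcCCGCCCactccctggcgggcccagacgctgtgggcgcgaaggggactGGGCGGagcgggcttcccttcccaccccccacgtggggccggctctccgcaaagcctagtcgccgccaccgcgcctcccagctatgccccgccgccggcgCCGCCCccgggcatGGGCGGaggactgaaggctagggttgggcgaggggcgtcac
Tpm1: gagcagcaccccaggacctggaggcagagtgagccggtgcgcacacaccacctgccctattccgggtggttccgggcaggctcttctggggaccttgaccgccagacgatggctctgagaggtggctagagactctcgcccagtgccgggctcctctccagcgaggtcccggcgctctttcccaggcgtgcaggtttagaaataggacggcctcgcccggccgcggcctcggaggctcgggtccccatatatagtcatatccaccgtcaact
Fgf9, first: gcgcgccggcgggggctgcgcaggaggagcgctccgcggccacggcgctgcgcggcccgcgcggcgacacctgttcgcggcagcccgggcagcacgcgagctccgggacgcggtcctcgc
Fgf9, second: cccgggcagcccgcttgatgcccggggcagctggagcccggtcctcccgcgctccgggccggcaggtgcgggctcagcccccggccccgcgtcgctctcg
Cacna1c: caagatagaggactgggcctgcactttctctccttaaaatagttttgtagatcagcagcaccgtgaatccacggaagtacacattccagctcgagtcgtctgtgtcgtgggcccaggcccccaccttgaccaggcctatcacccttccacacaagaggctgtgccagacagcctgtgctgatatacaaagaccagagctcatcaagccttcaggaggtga
Ehbp1: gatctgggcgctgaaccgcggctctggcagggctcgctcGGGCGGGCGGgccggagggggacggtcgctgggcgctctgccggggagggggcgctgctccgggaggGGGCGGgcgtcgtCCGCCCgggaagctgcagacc
Aqp3: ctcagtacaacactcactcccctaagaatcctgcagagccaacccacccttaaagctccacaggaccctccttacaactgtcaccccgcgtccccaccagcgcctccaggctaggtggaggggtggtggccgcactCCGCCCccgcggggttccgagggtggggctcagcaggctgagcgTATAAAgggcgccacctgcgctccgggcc

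Most of these stretches were dense in C and G. The GC content was 78.0% in Tbx3 with 16 CpGs in 100 bases, 75.4% in Bmp7 with 30 CpGs in 260 bases, and 83.3% and 82.0% in the stretches of Fgf9. The GC box was matched 4 times in Klf10 and 4 times in Ehbp1, and in Wnt9b its nearest match began 20 bp before the TSS. The Bmp7 stretch held 2 GC boxes and a CCAAT word that began 194 bp before the TSS. Tpm1 (65.1% GC) and the Fgf9 stretches held none of the 3 words. The Cacna1c stretch was different in kind, with 53.2% GC and 5 CpGs in 220 bases. In Aqp3, which encodes a water and glycerol channel, TATAAA began 29 bp before the TSS. In the 300 bases before all 69932 distinct TSSs of protein-coding genes, the share holding each word on either strand was 39.2% for GGGCGG, 12.4% for TATAAA and 35.8% for CCAAT. Those bases had a median GC content of 54.3%, against 71.7% for the 300 bases before the TSSs of members.

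The members hugged the TSS from its upstream side. Their midpoints lay a median of 97.5 bp upstream (95% interval of the median from order statistics 84.5 to 107.5 bp), with quartiles of 29.5 and 220.5 bp and a range of 0.5 to 1070 bp. Of the 570, 292 (51.2%) were centred within 100 bp of the TSS, 121 between 100 and 200 bp, 63 between 200 and 300 bp, and 36 more than 500 bp away. The regions centred after the TSS lay a median of 178.5 bp into the gene, and 431 of 1464 (29.4%) were within 100 bp. These distances describe the choice of regions and were not tested. The widths named here are multiples of 20 bp, so edges are not resolved to single bases and distances of a few bp do not settle the side. Intervals here and below cover counting error over regions, and regions are not replicates.

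**Figure D1:**
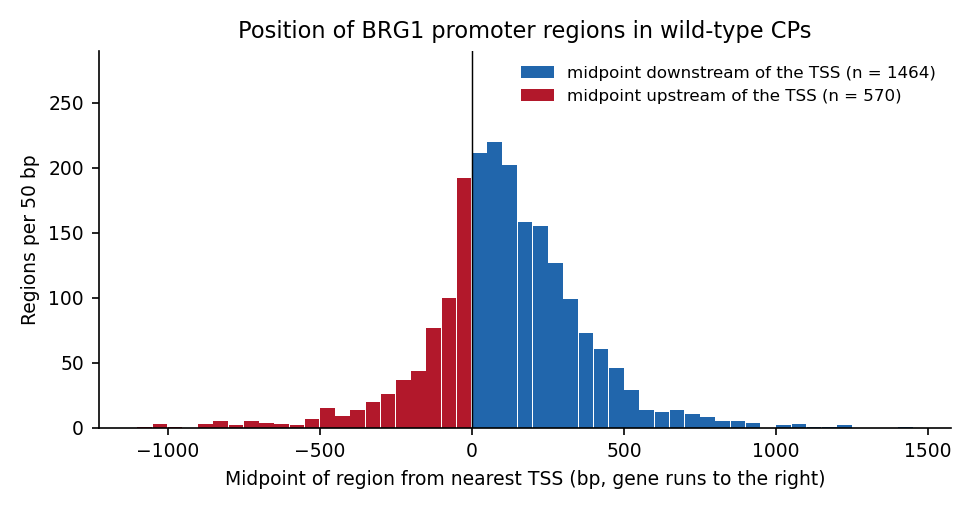
Number of BRG1 promoter regions per 50 bp (vertical axis) by the distance of their midpoint from the nearest TSS in bp (horizontal axis, gene to the right), for 570 upstream-centred and 1464 downstream-centred regions. The upstream counts are highest next to the TSS, while the downstream counts extend farther into the gene.

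Upstream-centred regions usually reached over the TSS. The nearest TSS was included in 400 of 570 members (70.2%, Wilson 95% interval 66.3 to 73.8%), and 170 lay wholly before it. Those that included it were wider (median 500 bp) and centred a median of 53.0 bp upstream, whereas those that did not had a median width of 200 bp and a median distance of 309 bp. Over all members the width had a median of 400 bp, with quartiles of 180 and 620 bp. The position covered by most members was 70 bp before the TSS, in 75.6% of them, and for downstream-centred regions it was 130 bp after the TSS, in 71.6%. In the latter set 618 of 1464 regions (42.2%) included the TSS. With regions under 500 bp only, 57.4% of members included it.

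**Figure D2:**
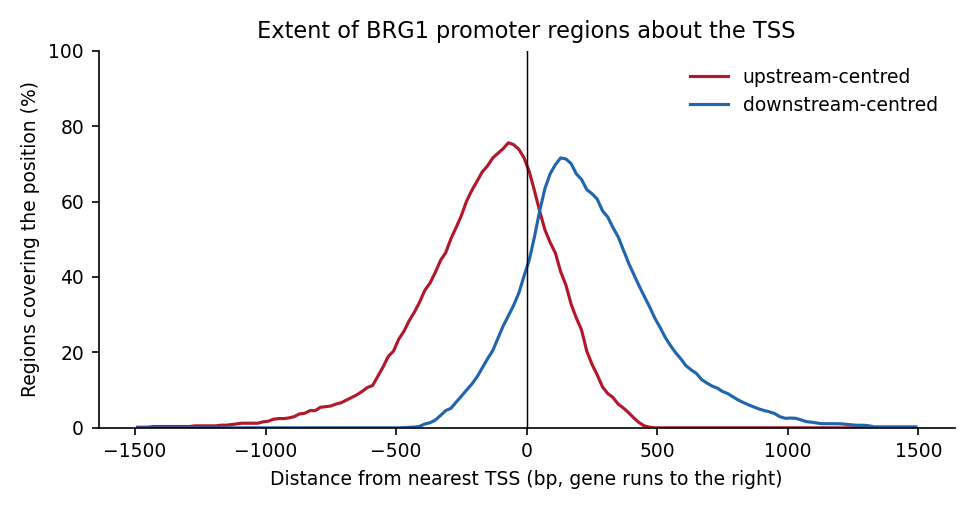
Percent of regions that cover each position about the nearest TSS (distance in bp, gene to the right), for the 570 upstream-centred and 1464 downstream-centred regions. The upstream curve is highest 70 bp before the TSS and the downstream curve 130 bp after it.

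**Figure D3:**
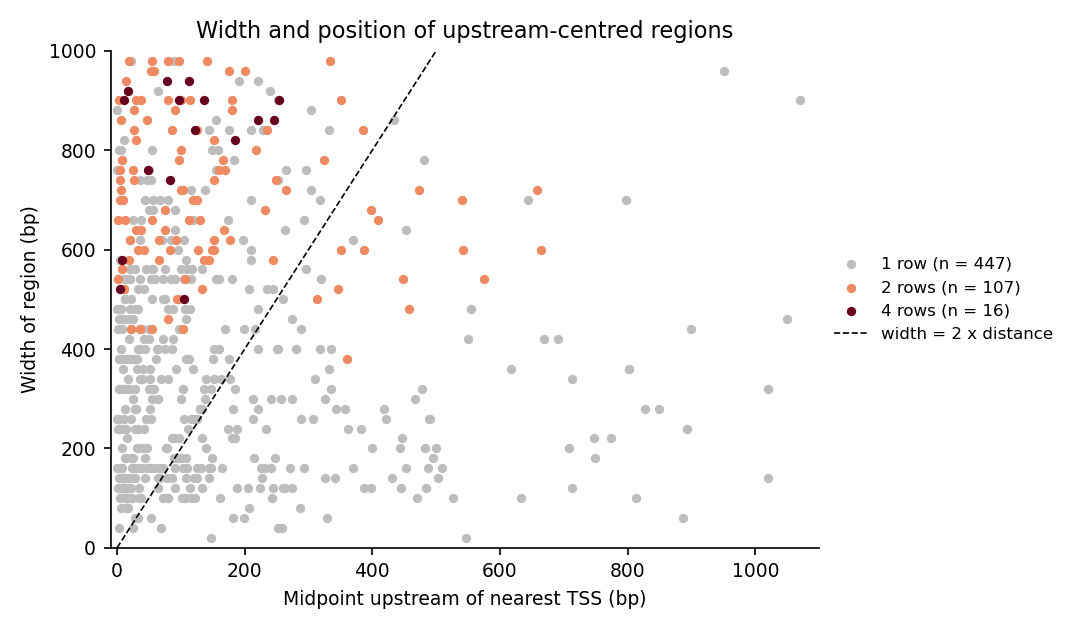
Width of each of the 570 upstream-centred regions (bp) against the distance of its midpoint upstream of the nearest TSS (bp), coloured by the number of rows on which the list gives it; points left of the dashed line reach the TSS. Regions on 2 or 4 rows lie among the wide ones, and the regions centred more than 500 bp upstream are few.

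The annotated starts of a gene were often several, and this set what counted as upstream. In 285 members (50.0%) the nearest TSS was the most 5′ TSS of the gene, so the midpoint lay before every annotated start. In the other 285 it lay after a more 5′ TSS, at most 1000 bp away in 177 and over 1000 bp away in 108, so that the region was before an alternative start inside the gene. Foxp1, a forkhead repressor used in heart and lung development, is of the latter kind, with its nearest TSS 238219 bp after the first. Rarb, a retinoic acid receptor, had its nearest TSS 243395 bp after the first, and Notch1 12839 bp after it. Several starts were also common in the downstream-centred set. There the nearest TSS was the most 5′ one in 663 of 1464 regions (45.3%). In the others the most 5′ TSS was at most 1000 bp away in 657 and over 1000 bp away in 144. When only the most 5′ TSS of each gene was used, 293 regions met the rule, at a median of 140.5 bp, and 59.0% included the TSS.

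The 570 members named 564 of 22380 protein-coding genes, 2.52% of them. Downstream-centred regions named 1456 genes (6.51%), and 2667 genes (11.9%) had any region within 1 kb of a TSS. In 6 genes 2 members were found at separate starts: Dgkz, Fgf9, Lrrc8d, Pam, Pde4d and Pik3r1. In 17 genes a member was accompanied by a downstream-centred region, at the same start or another; these genes included Hes1, Igf2, Nfatc1 and Tpm1. All these genes were named after their values were seen, apart from those of the lists below. Members were spread over the autosomes, from 1.47 per 100 protein-coding genes on chromosome 14 to 3.55 on chromosome 1. Chromosome X had 1 member, at Zfx, among 932 protein-coding genes, and 16 of all 3473 regions.

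The gene lists are given as counts beside these background shares, with no test, since their genes were chosen with earlier results of these data known. In most lists with a member, more genes had a downstream-centred region than a member. Cell cycle genes (5 with a member, 3 downstream) and Trithorax and BET genes (2 and 1) went the other way. Retinoic acid genes (2 and 2), forkhead genes (3 and 3) and protocadherins (1 and 1) were equal. Among cardiac transcription factors, 3 of 34 genes (8.82%) had an upstream-centred region and 6 (17.6%) a downstream-centred one. Isl1, which marks and specifies progenitors of the second heart field, had a region of 600 bp on 2 rows, centred 149.5 bp upstream and reaching over the only TSS nearby. Tbx3, a T-box repressor that keeps conduction tissue from working-muscle fate, had a narrow region of 100 bp that ended 73 bp before the TSS. The region at Nfatc1, a calcineurin-dependent factor of the endocardium and valves, was 560 bp wide and lay at an alternative start 4898 bp after the first. Thus these 3 regions differed in reach: those of Isl1 and Nfatc1 included the TSS and that of Tbx3 did not.

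The contractile and electrical machinery had 3 such genes. Of 35 sarcomere and contractile genes, 2 (5.71%) had a member, Des and Tpm1, and of 31 calcium handling and ion channel genes 1 (3.23%), Cacna1c. Des, the intermediate filament of muscle, had a region of 660 bp on 2 rows wholly before the TSS, centred 408.5 bp upstream. Tpm1, a tropomyosin of the thin filament, had a region of 360 bp centred 92.5 bp upstream and a second, downstream-centred one. Cacna1c, the pore of the L-type calcium channel, had a region of 220 bp centred 446.5 bp upstream. None of the 3 lay in a CpG-rich window as defined below. Speg, a kinase of striated muscle outside this list, had the region farthest upstream, 900 bp wide and centred 1070 bp before an internal start; all 900 bp of it were annotated as exon.

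Signalling genes were represented by ligands, receptors and target factors alike. Of 65 Wnt pathway genes, 5 (7.69%) had a member: the ligands Wnt2, Wnt9b and Wnt11, the receptor Lgr5 and the transcription factor Tcf7. Wnt11, a ligand of the non-canonical branch used in cardiac differentiation, had a region of 380 bp centred 5.5 bp upstream, almost on the TSS, and those of Wnt9b, Wnt2 and Lgr5 were centred 30.5, 45.5 and 56.5 bp upstream. Tcf7, a nuclear partner of beta-catenin, had a region of 120 bp that lay wholly upstream, centred at 244.5 bp. A downstream-centred region was found at 9 of the 65 Wnt pathway genes (13.85%), and any region within 1 kb of a TSS at 22 (33.85%). The 4 members among 32 Notch pathway genes (12.5%) were centred a median of 318.5 bp upstream, a distance that was not compared between lists. Hes1, the repressor that Notch switches on, had a region of 600 bp on 2 rows centred 664.5 bp upstream, and the ligand Jag1 had one of 120 bp at 445.5 bp. The receptor Notch1 and the coactivator Maml1 had theirs at 191.5 and 119.5 bp. Of the 32 Notch pathway genes, 7 (21.9%) had a downstream-centred region and 11 (34.4%) any region within 1 kb of a TSS.

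Of 51 genes of the BMP, TGF-beta and Nodal pathway, 4 (7.84%) had a member and 11 (21.6%) a downstream-centred region. The receptor Tgfbr1 had a region on 4 rows, 520 bp wide and centred 4.5 bp upstream. The ubiquitin ligase Smurf2 (740 bp, 26.5 bp upstream) and the receptor Acvr1c (260 bp, 52.5 bp) also had regions over the TSS, and that of the ligand Bmp7 stopped 84 bp before it. Among 40 FGF pathway genes, Fgf9 and Etv4 were named (5%). Fgf9, a ligand for cardiomyocyte growth from the epicardium and endocardium, had regions of 120 and 100 bp at separate internal starts, centred 397.5 and 116.5 bp upstream, and Etv4, an ETS factor that FGF signalling induces, had one of 680 bp at 50.5 bp. Boc, a co-receptor, was the single one of 17 Hedgehog genes (5.88%), and Rarb and Rbp4, which carries retinol in plasma, were 2 of 21 retinoic acid genes (9.52%).

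Genes of chromatin regulators themselves carried such regions. Of 29 BAF and PBAF subunit genes 3 (10.3%) had a member and 10 (34.5%) any region within 1 kb of a TSS. Smarca2, which encodes BRM, the ATPase that takes the place of BRG1, had a region of 480 bp centred 554.5 bp before an internal start. Smarcd3, which encodes BAF60c, had one of 440 bp centred 7.5 bp upstream and so nearly symmetric about the TSS, and Bcl7c had one of 200 bp at 46.5 bp. Of 29 Polycomb genes 5 (17.2%) had a member: Ring1 (700 bp wide), a ubiquitin ligase for H2A; Rybp (980 bp), its partner; Jarid2 (480 bp), a cofactor of PRC2; Yy1 (800 bp) and Cbx6 (140 bp). A downstream-centred region was found at 7 of the 29 Polycomb genes (24.1%), and any region within 1 kb of a TSS at 13 (44.8%). Mll1 and Mll3, methyltransferases for H3K4, were 2 of 17 Trithorax and BET genes (11.8%), both with narrow regions wholly upstream, centred at 386.5 and 774.5 bp. Baz1a, a subunit of an ISWI complex, was 1 of 24 other remodeller genes (4.17%), of which 7 (29.2%) had a downstream-centred region.

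Among 50 cell cycle genes 5 (10%) had a member and 3 (6%) a downstream-centred region. They were Ccne2, a cyclin of the G1 to S transition; the E2F repressors E2f6 and E2f7; Mdm2, the ubiquitin ligase for p53; and Cdkn2a, which encodes inhibitors of the cycle. Their midpoints lay from 12.5 bp (E2f7) to 452.5 bp (Ccne2) upstream. Of 27 immediate early genes 2 (7.41%) were named, Fosl2, an AP-1 subunit with a region 1050 bp upstream, and Klf10. Klf9 joined Klf10 among 26 Klf and Sp genes (7.69%), and Foxn2, Foxo6 and Foxp1 were 3 of 43 forkhead genes (6.98%). Of 19 pluripotency genes Tbx3, already given, was the single one (5.26%).

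The shares of other families lay on either side of the 2.52% of all genes. Solute carriers had 12 of 370 (3.24%), of which Slc35a3, Slc35d1, Slco3a1, Slc6a4 and Slc44a1 came first by rows and width. Zinc finger genes named Zfp had 6 of 368 (1.63%), with Zfp644, Zfp553, Zfp326, Zfp592 and Zfp365 first, against 21 (5.71%) with a downstream-centred region. Translation initiation factors had Eif5 and Eif3c of 58 (3.45%) and splicing factors Hnrnpr and Hnrnpu of 65 (3.08%). The proteasome had Psme4 of 50 (2%), an activator subunit with a region on 4 rows, and protocadherins Pcdh18 of 36 (2.78%). The single match among 137 ribosomal protein names (0.730%) was Rps6ka1, which is a kinase and not a ribosomal protein. No member was found among 25 early mesoderm and primitive streak genes, 19 Sox genes, 76 mitochondrial ribosomal proteins, 40 Hox genes, 67 clustered histone genes, 1087 olfactory receptors or 96 keratins and keratin-associated proteins. For Hox, histone, olfactory and keratin genes there was also no downstream-centred region and none of any kind within 1 kb of a TSS. In the smaller lists, such as the 19 Sox genes, the background share comes to less than 1 gene, so a count of 0 is near it.

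Members were compared with the 1464 downstream-centred regions by 15 two-sided Fisher's exact tests, with p adjusted by Benjamini-Hochberg over the 15; 7 passed 0.05. One of these, on CpG-rich windows, is given without its p, since its window is placed by the midpoint, whose side of the TSS chose the members; with that test left out of the adjustment, an alternative added after the data were seen, 4 of 14 passed. Most regions of both sets lay in CpG-rich sequence. A CpG-rich window, that is 500 bp about the midpoint with at least 55% GC and an observed over expected CpG ratio of at least 0.65, was found in 508 of 570 members (89.1%, 86.3 to 91.4%) and in 1385 of 1464 downstream-centred regions (94.6%, 93.3 to 95.7%). The 62 members outside such windows were centred farther from the TSS, at a median of 223.5 bp against 89.0 bp for the rest, and Des, Slc6a4, Boc, Lgr5 and Speg were among them. Base composition over all TSSs of protein-coding genes also differs by side, with a mean GC content of 51.1% in the 50 bp that begin 300 bp before them and 55.7% in the 50 bp that begin 250 bp after, so nothing is read from the difference between the sets. Over the regions themselves the median GC content was 74.3% in members and 74.9% in downstream-centred regions.

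The side of the TSS on which mean GC content peaked went with the side of the region, by which the sets were chosen. The regions of both sets were GC-rich (median 74.3% and 74.9%), so this follows at least in part from that choice. Mean GC content peaked at 73.6% in the 50 bp that begin 100 bp before the TSS for members, and at 73.1% in the 50 bp that begin 100 bp after it for downstream-centred regions; over all TSSs of protein-coding genes it peaked at 58.4% in the first 50 bp of the gene. The 300 bases before the TSS had a median GC content of 71.7% in members, 66.3% in the downstream set and 54.3% over all TSSs. For the 300 bases after it the median was 70.3% in members, close to that before it, and 73.3% in the downstream set. In 310 of 570 members (54.4%) the 300 bases before the TSS had a higher GC content than the 300 after, and in 293 of 1464 downstream-centred regions (20.0%). This split was looked at after the composition had been seen and was not tested. How far recovery and sequencing of GC-rich DNA differed between ChIP and input was not tested either, since the list holds no reads.

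**Figure D4:**
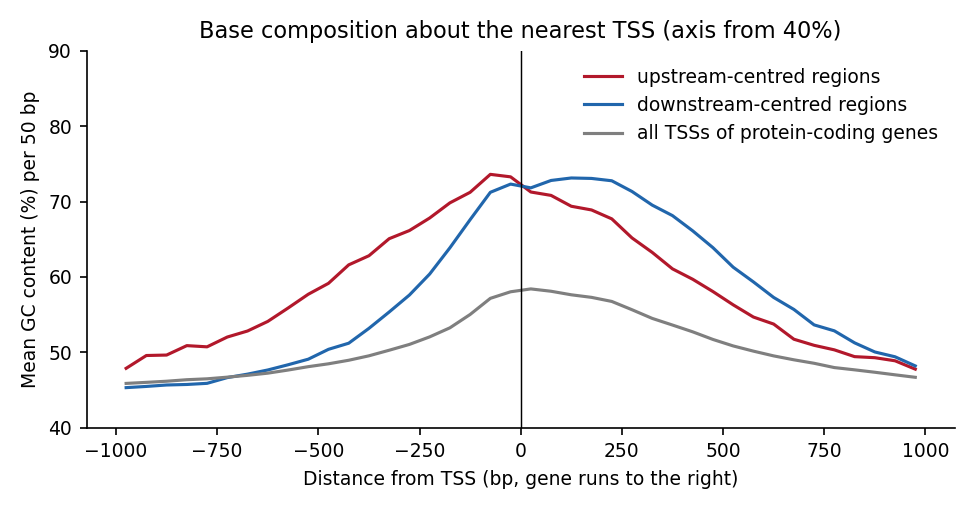
Mean GC content (percent, axis from 40%) in steps of 50 bp about the nearest TSS (distance in bp, gene to the right) for upstream-centred regions, downstream-centred regions and all TSSs of protein-coding genes. The peak lies before the TSS for the upstream-centred regions, at 73.6%, and after it for the downstream-centred ones, at 73.1%. The sets were chosen by that side.

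The 300 bases before the TSS also differed in the short words they held. This window lies on the side of the TSS by which members were chosen. The position 70 bp before the TSS was covered by 75.6% of members and 29.7% of downstream-centred regions. Tests of words here and below therefore follow in part from that choice, and nothing beyond the letters on that side is read from them. Their p-values cannot separate the words from that choice. Shares over all TSSs are a description only. The bases before all TSSs had a median GC content of 54.3%, against 71.7% for members. Members had the GC box GGGCGG more often, in 467 of 570 (81.9%, 78.6 to 84.9%) against 1129 of 1464 (77.1%, 74.9 to 79.2%; odds ratio 1.35, Fisher adjusted p = 0.0462). The odds ratio was 2.16 with the most 5′ TSS of each gene, 1.77 with 500 bases and 1.64 with protein-coding transcripts only, where the call was kept. The direction turned with GC content as a covariate, as given below, and the call was lost without the CpG test in the adjustment (Fisher adjusted p = 0.0503), for midpoints more than 50 bp from the TSS (Fisher adjusted p = 0.180) and for regions under 500 bp (Fisher adjusted p = 0.194). They had the NF-Y word CCAAT less often, in 115 (20.2%, 17.1 to 23.7%) against 436 (29.8%, 27.5 to 32.2%; odds ratio 0.596, Fisher adjusted p = 1.63e-04), and both shares were below the 35.8% of all TSSs. The TATA box TATAAA was found in 16 members (2.81%) and 92 downstream-centred regions (6.28%; odds ratio 0.431, Fisher adjusted p = 0.00650), a call that was lost with GC content as a covariate, as given below. Members with it included Smarca2, Rbp4, Wnt11 and Aqp3. In the usual place of a TATA box, from 40 to 16 bases before the TSS on the strand of the gene, it was rare in both sets, with 3 members (0.526%) and 8 downstream-centred regions (0.546%) against 1.30% of all TSSs.

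The words of CREB and ATF factors and of NRF1 were also less frequent in the 300 bases before the TSS in members. This is again the side by which members were chosen. Within the regions themselves both words were more frequent in members, as given below. The CREB and ATF word TGACGTCA was in 6 members (1.05%), Yy1 among them, and in 47 downstream-centred regions (3.21%, odds ratio 0.321, Fisher adjusted p = 0.0145). This call was lost with 500 bases before the TSS (0.545, Fisher adjusted p = 0.157) and with the most 5′ TSS of each gene (0.669, Fisher adjusted p = 0.609). The word GCATGCGC of NRF1, an activator of nuclear genes for mitochondria, was in 16 members (2.81%), such as Jag1, Fgf9, Mdm2 and E2f6, and in 90 downstream-centred regions (6.15%; odds ratio 0.441, Fisher adjusted p = 0.00663); with the most 5′ TSS of each gene the odds ratio was 0.282. The ETS word CCGGAAG (7.72% against 10.9%, Fisher adjusted p = 0.0692), the E-box CACGTG (7.19% against 10.2%, adjusted p = 0.0692) and the YY1 word AAGATGGC (1.58% against 2.94%, adjusted p = 0.130) did not pass. With regions under 500 bp these 3 words passed, at odds ratios of 0.591, 0.537 and 0.324. CCGGAAG also passed with 500 bp either side of a TSS (0.653) and for midpoints more than 50 bp away (0.563). Its direction turned with the most 5′ TSS of each gene (1.06), with no call. The E2F word TTTCCCGC, in 2.46% of members and 2.32% of downstream-centred regions, did not pass (Fisher adjusted p = 1). A match describes the letters in this window and not the binding of a factor.

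Words of the cardiac factors did not pass in the 300 bases before the TSS. The GATA word AGATAA was in 21 members (3.68%, 2.42 to 5.57%) and 60 downstream-centred regions (4.10%, 3.20 to 5.24%; Fisher adjusted p = 0.884), against 10.6% of all TSSs. With 500 bases before the TSS the GATA word did pass, in 7.89% of members and 11.5% of downstream-centred regions (odds ratio 0.661, Fisher adjusted p = 0.0462). In the 300 bases its direction turned with GC content as a covariate (odds ratio 1.51), with no call. The T-box word AGGTGTGA was in 3 members (0.526%) and 8 downstream-centred regions (0.546%; Fisher adjusted p = 1), and the TEAD word GGAATG in 68 (11.9%) and 173 (11.8%; adjusted p = 1). Over all TSSs the shares were 1.13% for the T-box word and 13.5% for the TEAD word. The bases before all TSSs had a lower median GC content (54.3%) than those of members (71.7%), so nothing is read from these differences.

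The words within the regions themselves ran differently; members mostly cover bases before the TSS and downstream-centred regions bases after it. CCAAT was in 20.4% of members and 10.9% of downstream-centred regions, TATAAA in 2.63% and 1.78%, TGACGTCA in 1.58% and 0.751%, GCATGCGC in 2.46% and 1.64%, and AGATAA in 4.74% and 2.53%. CCGGAAG was in 8.77% and 7.58%, and CACGTG in 9.30% and 6.01%. These shares were higher in members, whereas in the 300 bases before the TSS they were lower. GGGCGG (84.2% and 77.5%), TTTCCCGC (3.33% and 2.39%) and GGAATG (13.9% and 7.92%) were higher in members in both windows. AAGATGGC (3.51% and 3.89%) and AGGTGTGA (0.351% and 0.410%) were lower in members in both. The regions differ in width and were not compared by a test, so the lower shares given above hold for the bases before the TSS and not for the sequence under the regions.

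The contrast in words moved with GC content. With the GC content of the 300 bases as a covariate in a logistic model (n = 2034 regions), chosen after the data were seen, the odds ratio of GGGCGG turned to 0.677 (adjusted p = 0.0444) and TATAAA no longer passed (0.660, adjusted p = 0.187). CCAAT (0.724, adjusted p = 0.0444), TGACGTCA (0.337, adjusted p = 0.0456) and GCATGCGC (0.486, adjusted p = 0.0444) still passed in this model (n = 2034).

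**Figure D5:**
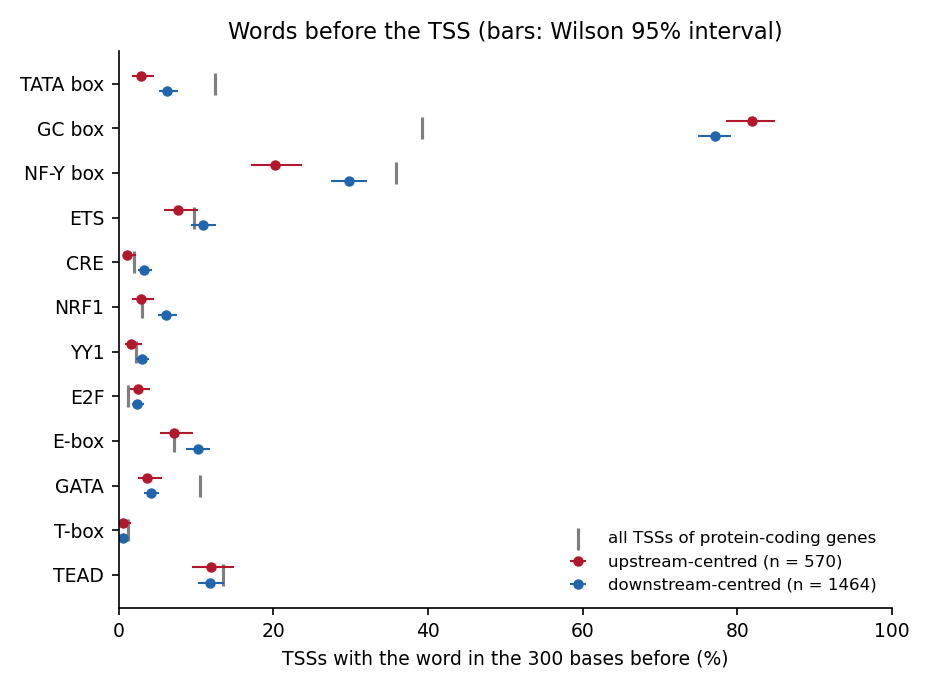
Percent of nearest TSSs with each word on either strand in the 300 bases before them, for 570 upstream-centred and 1464 downstream-centred regions (points with Wilson 95% intervals), and for all TSSs of protein-coding genes (grey ticks). Words are named by the element or factor whose letters the text gives, NF-Y box for CCAAT. The GC box is the most frequent in both sets (81.9% and 77.1%), a difference that turns with GC content as a covariate. The NF-Y box is less frequent for upstream-centred (20.2%) than for downstream-centred regions (29.8%). These bases lie on the side by which the upstream-centred regions were chosen.

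Some regions stood on more than 1 row of the list with the same coordinates, for a reason the sources used here do not give. This held for 123 members (21.6%, 18.4 to 25.1%), with 107 on 2 rows and 16 on 4, and for 250 downstream-centred regions (17.1%, 15.2 to 19.1%; odds ratio 1.34, Fisher adjusted p = 0.0462, or 0.0503 without the CpG test in the adjustment). Rows went with width: the median was 300 bp on 1 row, 700 bp on 2 and 860 bp on 4. Of 139 members over 200 and up to 400 bp wide 1 was on several rows, of 121 up to 600 bp 35 (28.9%; downstream 21.7%), of 92 up to 800 bp 45 (48.9%; downstream 52.4%) and of the 61 widest 42 (68.9%; downstream 70.8%). With width as a covariate in such a model (n = 2034), chosen after the data were seen, the odds ratio was 1.09 (adjusted p = 0.695). A start of a gene that is not protein coding lay on the opposite strand within 1 kb of 50 members (8.77%, 6.72 to 11.4%) and 113 downstream-centred regions (7.72%, 6.46 to 9.20%; odds ratio 1.15, Fisher adjusted p = 0.637), and Tbx3, Mll3 and Bcl7c were among the former.

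The limits of the rule passed through continuous distributions. The widest members, 8 regions of 980 bp at Cdc42se2, Dicer1, Glis2, Hmgn1, Rufy1, Rybp, Tbpl1 and Ubtd2, were 20 bp short of the limit, and 10 regions centred upstream that were 1000 bp wide or at most 20 bp wider fell outside, among them Aff1, Gtf2i, Pde3a and Rere. The midpoint was 0.5 to 1.5 bp before the TSS in 11 members, such as Igf2, Rad52, Ptprk and Ric3, and 0.5 to 1.5 bp after it in 7 regions that were left out, such as Acaca, Phc2 and Spry1. The widths named here are multiples of 20 bp, so edges are not resolved to single bases and the side of such regions is not settled. The members farthest away by their near edge were Ehbp1, Hmga1 and Rarres2, at 857 to 951 bp, and the nearest regions beyond 1 kb, at 1037 to 1070 bp, were those of 1100001G20Rik, Rgs7 and Abr. A midpoint more than 50 bp upstream was found in 378 of the 570 members.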

How the data were processed

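Chromatin was crosslinked, digested with MNase and sonicated, and BRG1 was precipitated from 2 wild-type CP samples with 1 input. Single-end reads were trimmed by the authors (fastq-mcf) and mapped to mm9 (Bowtie), and bins enriched over input were called. The deposited list gives chromosome, start and end on 4791 rows. Versions and how the replicates were combined are not given in the sources used here. Depth is unknown, and p-values cover counting error over regions, not spread between samples.

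Identical rows were merged. TSSs came from GENCODE M1. Members, lists and rules were chosen with earlier results of these data known. Genes named by rule were up to 5 for each of 32 lists (most rows, then widest) and the extremes of distance, width and rows. The BAF genes and those at the limits of the rule were also named. Others, such as Aqp3 and Zfx, were named after their values or sequences had been seen. Sets were compared by Fisher's exact tests and logistic models (Python 3.11.15, scipy, statsmodels), tested on simulated data. Alternatives varied the TSS set, window, width, word window and CpG threshold.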

Additional observations from a re-analysis of the deposited data

How the results depend on the processing

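Of 131 alternatives for 18 results, 27 of them added after the data were seen, 97 kept the direction and the side of the threshold, or a like value. No paired analysis was possible because both replicates share 1 list of positions. The number of members (570) was 293 with the most 5′ TSS of each gene, 343 under 500 bp wide, 170 with the whole region upstream and 378 with a midpoint more than 50 bp upstream; the last 3 of these are narrower rules, and the most 5′ TSS assigns regions anew. The median distance (97.5 bp) was 140.5 bp with the most 5′ TSS, and the share including the TSS (70.2%) was 59.0% with it and 57.4% under 500 bp.

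For the tests, values are odds ratios, upstream over downstream. With the CpG test left out of the adjustment, several rows (1.34) and GGGCGG (1.35) no longer passed, at unchanged odds ratios. Several rows (1.34) fell short of the threshold at 1.33 with the most 5′ TSS, 1.36 under 500 bp and 1.09 with width as a covariate. GGGCGG (1.35) did so at 1.28 for midpoints more than 50 bp from the TSS and 1.28 under 500 bp, and turned to 0.677 with GC content as a covariate, but rose to 2.16 with the most 5′ TSS, 1.77 with 500 bases and 1.64 with protein-coding transcripts. GCATGCGC (0.441) was at 0.282 with the most 5′ TSS. TATAAA (0.431) fell short at 0.660 with GC content, and TGACGTCA (0.321) at 0.545 with 500 bases and 0.669 with the most 5′ TSS. Words that had not passed did so at 0.591 (CCGGAAG), 0.537 (CACGTG) and 0.324 (AAGATGGC) under 500 bp, at 0.653 (CCGGAAG) with 500 bp either side of a TSS, at 0.563 (CCGGAAG) for midpoints more than 50 bp away and at 0.661 (AGATAA) with 500 bases. Words not called in the 300 bases changed direction in these settings, with no call there: AGATAA to 1.51 and AGGTGTGA to 1.28 with GC content, AGGTGTGA to 1.12 with 500 bp either side of a TSS, CCGGAAG to 1.06 with the most 5′ TSS, TTTCCCGC to 0.996 with 500 bp either side and 0.826 for midpoints more than 50 bp away, and GGAATG to 0.878 with 500 bases, 0.998 for midpoints more than 50 bp away, 0.942 with the most 5′ TSS and 0.913 under 500 bp. The cause was not tested, and a covariate shows association alone. Depth and replicate spread set a limit that cannot be measured from positions.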
